A study of Homo sapiens with 4 samples.

Results

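The sites described here are the 1048 distal FAIRE sites that stood early in the list for SF-1 overexpression and had no counterpart in the basal list, out of 31219 sites in the overexpression list and 65642 sites in both lists of the series. They are referred to as members. FAIRE-seq recovers DNA that formaldehyde does not crosslink to nucleosomes, and so marks accessible chromatin. It was performed in H295R/TR SF-1 cells, a derivative of the human adrenocortical tumour line H295R that carries an SF-1 (NR5A1) transgene under a doxycycline-inducible promoter. Basal cells carried the same transgene and are labelled as basal SF-1, whereas overexpressing cells had received doxycycline for 3 days. Each condition was represented by 1 FAIRE library, and the matched inputs were not used here. SF-1 dosage, doxycycline and the individual library can therefore not be told apart, no difference has a replicate check, and no p-value was computed. Depth is unknown because the lists hold positions without reads. Absence from a list means that a site was not called, not that the chromatin was closed. In the overexpression list, 6 of 10 start regions of adrenocortical genes (those of STAR, CYP11A1, CYP17A1, CYP21A2, MC2R and SCARB1) had a site within 1 kb, as did 5 of 10 in the basal list, against 1 (SYN1) and 0 of 9 start regions of liver, neuronal, lymphoid and erythroid genes. NR5A1 and FDX1 had one in the basal list only, and HSD3B2 and NR0B1 in neither list. Of all 20090 protein-coding genes, 41.4% had such a site in both lists and 46.4% in neither. A further 7.18% had one in the overexpression list only and 4.94% in the basal list only. The counts for adrenocortical genes thus lay close to the shares over all coding genes.

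Members were chosen by values of the lists themselves. Of 31201 overexpression sites on chromosomes 1 to 22 and X, 12572 did not overlap a basal site by even 1 bp, and 3517 of these had a running peak number in the first 50% of the list, which ended at number 15609. Distance was measured from the site centre. In all, 1261 sites lay farther than 10 kb from every annotated transcription start (GENCODE release 44 on GRCh37, the assembly behind hg19), and 1048 of these lay within 200 kb of a protein-coding start, which left out 213. Among the early distal sites of the overexpression list, 32.6% were called only there, a share that the choice itself sets. At the edges of the choice, the last member stood at number 15609 near SGCD and the next site of the same kind at 15615 near KLF9. The member closest to a start lay 10040 bp away (nearest coding gene PIGM), while a site near ZMIZ1 at 9999 bp was left out. The farthest lay 199406 bp from MYC, and a site 200141 bp from BCL11A was left out. Members are compared below with 1660 early distal sites called only in basal cells by the mirror rule (basal-only sites), with 2167 early distal overexpression sites that overlapped a basal site (shared sites), and with 3053 overexpression-only distal sites from the remainder of the list (late sites).

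SF-1 is an orphan nuclear receptor that binds DNA as a monomer, at a single nuclear receptor hexamer preceded by a short extension, and drives steroidogenic genes in the adrenal cortex and gonads. Distal accessible sites are often enhancers, silencers or insulators, and the gene they act on need not be the nearest one. CTCF occupies insulators and loop anchors, whereas AP-1 (FOS and JUN dimers) occupies many inducible enhancers. The nearest gene is therefore used below as a label of position only.

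To show what a member looked like at the sequence level, 3 low-numbered members of at most 300 bp that held an SF-1 motif are printed first (GRCh37, + strand, 5′ to 3′). Capitals mark the SF-1 motif, spelled CAAGGTCA or CAAGGCCA, which on the other strand reads TGACCTTG or TGGCCTTG. The first lay at chr1:170276801-170277049, between genes and 150 kb from NTMT2, and the next at chrX:152645001-152645299, 21.7 kb from PNMA6E. The last lay in an intron, at chr2:97353601-97353849 in FER1L5, where the start of the site reaches into a coding exon.
NTMT2: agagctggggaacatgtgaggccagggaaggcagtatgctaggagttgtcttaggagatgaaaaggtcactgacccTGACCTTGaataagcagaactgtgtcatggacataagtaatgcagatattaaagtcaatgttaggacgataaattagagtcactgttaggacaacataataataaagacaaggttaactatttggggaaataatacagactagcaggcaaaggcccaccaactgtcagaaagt
PNMA6E: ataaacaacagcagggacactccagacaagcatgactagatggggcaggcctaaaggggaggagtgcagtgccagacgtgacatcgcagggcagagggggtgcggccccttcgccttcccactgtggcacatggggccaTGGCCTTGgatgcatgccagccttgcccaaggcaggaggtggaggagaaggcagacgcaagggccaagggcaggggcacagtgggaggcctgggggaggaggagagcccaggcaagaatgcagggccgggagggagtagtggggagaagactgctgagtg
FER1L5: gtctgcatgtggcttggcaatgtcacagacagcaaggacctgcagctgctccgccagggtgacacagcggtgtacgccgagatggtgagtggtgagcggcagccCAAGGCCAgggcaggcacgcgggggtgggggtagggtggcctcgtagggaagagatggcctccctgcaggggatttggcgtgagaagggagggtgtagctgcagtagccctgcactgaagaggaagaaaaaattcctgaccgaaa

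For the genes with most members, an SF-1 motif site of LSAMP, the one of its pair that was at most 300 bp wide, lay at chr3:116908501-116908649 and that of KIT at chr4:55413851-55414099, both outside genes. In LSAMP the motif opened the site, at base 1 on the minus strand, and in KIT it began at base 89 on the plus strand.
LSAMP: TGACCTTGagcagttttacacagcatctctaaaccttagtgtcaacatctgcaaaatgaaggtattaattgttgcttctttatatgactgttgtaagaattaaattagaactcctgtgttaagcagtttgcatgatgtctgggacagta
KIT: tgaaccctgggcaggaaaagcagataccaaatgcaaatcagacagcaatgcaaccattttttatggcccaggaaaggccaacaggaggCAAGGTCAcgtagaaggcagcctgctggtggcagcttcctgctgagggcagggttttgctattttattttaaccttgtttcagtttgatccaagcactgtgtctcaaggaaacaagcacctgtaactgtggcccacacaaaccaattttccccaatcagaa

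Many members carried a variant of this motif with another sixth base and no SF-1 motif proper. As an example, chosen after the motif counts were seen, the lowest-numbered such member with CAAGGACA is shown. It lay at chr16:77810451-77810749, 11.9 kb upstream of VAT1L, and the variant is in capitals.
VAT1L: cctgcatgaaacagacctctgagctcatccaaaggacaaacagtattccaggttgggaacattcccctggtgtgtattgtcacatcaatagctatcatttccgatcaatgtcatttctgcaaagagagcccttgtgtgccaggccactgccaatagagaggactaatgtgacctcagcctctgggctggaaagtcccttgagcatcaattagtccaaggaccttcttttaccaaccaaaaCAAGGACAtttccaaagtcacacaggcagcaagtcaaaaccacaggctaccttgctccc

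The SF-1 motif was found in 230 of 1048 members, that is 21.9% (exact 95% interval 19.5 to 24.6%), and in 91 of 2096 flanks of equal length that began 1000 bp beyond either end (4.34%). Members exceeded their flanks by 17.6 percentage points (Newcombe 95% interval 15.0 to 20.3), or 5.05 times. All intervals cover counting error only, since sites are not replicates. The sequence with CAAGG in another order, AGCAGTCA or AGCAGCCA, served as a composition control. It was found in 3.44% of members and 2.58% of flanks, a difference of 0.859 points (-0.359 to 2.27). It was not neutral in every class, since basal-only sites exceeded their flanks by 3.49 points (2.36 to 4.77) and shared sites theirs by 2.86 (1.83 to 3.99). Late sites differed from theirs by 0.278 points (-0.293 to 0.917). The motif CAAGGTCA was found in 117 members and CAAGGCCA in 127. In 201 members it occurred once, in 24 it occurred 2 times, and in 5 more often. The latter, named after their counts were seen, were at GRIK3, CAVIN4, CFAP61 and PTPN1 with 3 matches each and at HMGB1P1, where a single 349 bp site held 11.

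Motifs lay near the middle of members. The median distance from motif to site centre was 42.5 bp over 272 motifs, and 58.1% lay within 50 bp of it, against 44.5 bp and 55.8% in basal-only sites and 45.5 bp and 53.4% in shared sites. In the profile around the centre, the 50 bp on either side held 8.49 and 6.58 SF-1 motifs per 100 members.

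**Figure D1:**
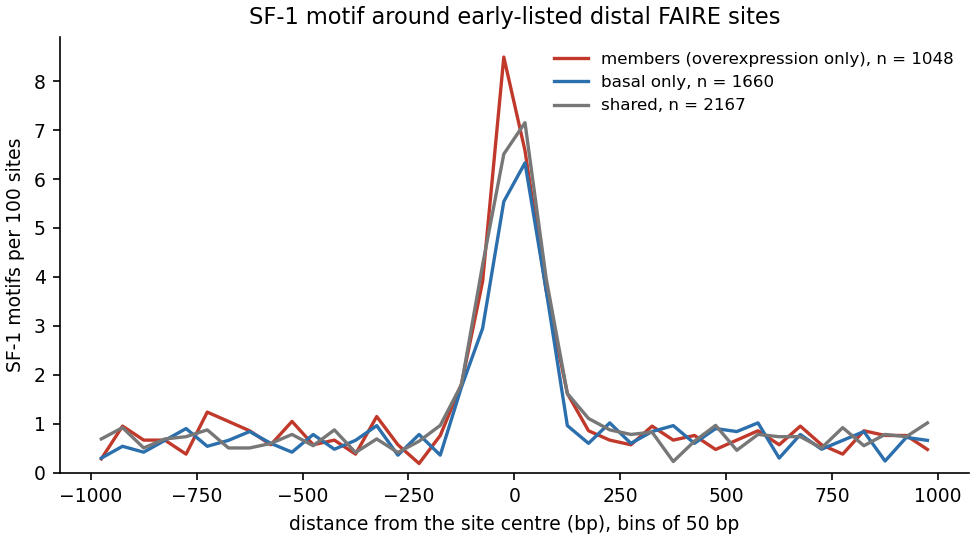
SF-1 motifs per 100 sites (vertical axis) against distance from the site centre in bp, in bins of 50 bp, for 1048 members, 1660 basal-only and 2167 shared early distal sites. All 3 lines rise to a peak at the centre, where the members reach 8.49 per 100 sites, and they fall away on both sides.

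The SF-1 motif itself was about as frequent in members as in the sites that basal cells had alone. It occurred in 335 of 1660 basal-only sites (20.2%), and the difference of 1.77 points (-1.36 to 4.97) included 0. In shared sites it occurred in 22.1%, a difference of -0.158 points (-3.16 to 2.95). Late sites held it less often, at 13.0%, so that members exceeded them by 8.94 points (6.24 to 11.8), although late sites were narrower (median 199 bp against 249 bp). When basal-only sites were weighted to the widths and GC content of the members, the difference was -1.21 points (-5.22 to 2.79).

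With any base allowed at the sixth position (CAAGGNCA, which includes the SF-1 motif), members stood above basal-only sites. Such a match was present in 393 members (37.5%; 34.6 to 40.5%), in 6.63% of their flanks, in 28.1% of basal-only and in 34.2% of shared sites. The difference from basal-only sites was 9.37 points (5.74 to 13.0), and 5.87 points (1.46 to 10.3) after weighting to the same width and GC content. By word, the differences from basal-only sites were as follows. CAAGGGCA occurred in 8.68% of members and 2.29% of basal-only sites, a difference of 6.39 points (4.63 to 8.35), and 5.60 (2.70 to 8.51) when weighted. CAAGGACA occurred in 11.3% and 6.99%, a difference of 4.27 points (2.06 to 6.62), and 3.98 (0.849 to 7.12) when weighted. CAAGGCCA differed by 4.59 points (2.30 to 7.01) before weighting and by 1.56 (-1.78 to 4.89) after it. CAAGGTCA went the other way, with 11.2% of members and 13.3% of basal-only sites, and its difference of -2.09 points (-4.55 to 0.479) included 0. Shared sites were closer to the members. The difference from them for any sixth base was 3.31 points (-0.215 to 6.87), and 5.26 (1.61 to 8.92) when weighted. By word it was 0.507 points (-1.74 to 2.91) for CAAGGACA and 0.812 (-1.50 to 3.28) for CAAGGCCA, which both included 0, and 3.24 points (1.37 to 5.29) for CAAGGGCA. Flanks of members held these words in 1.15 to 2.48% of cases.

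An unrestricted count of words of 8 letters gave a like picture. Among the 10 words with the largest excess of members over flanks, 3 were forms of CAAGGNCA with C, A or T at the sixth base, and these ranked first. CAAGGGCA ranked sixth. The others overlapped the same core in part. They were CAAGGCTG (11.0% of members, 2.53% of flanks and 2.47% of basal-only sites), CCAAGGCC (9.92, 1.57 and 3.13%), AGCCTTGA (8.68, 1.72 and 2.53%), CCAAGGTC (8.02, 1.34 and 6.39%), GAAGGCCA (7.63, 1.05 and 1.33%) and CTCAAGGC (7.35, 0.811 and 2.47%). The words were selected on the members, so their excess over flanks is a description. CAAGGTCA was the only one of the 10 with a smaller share in members than in basal-only sites.

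**Figure D2:**
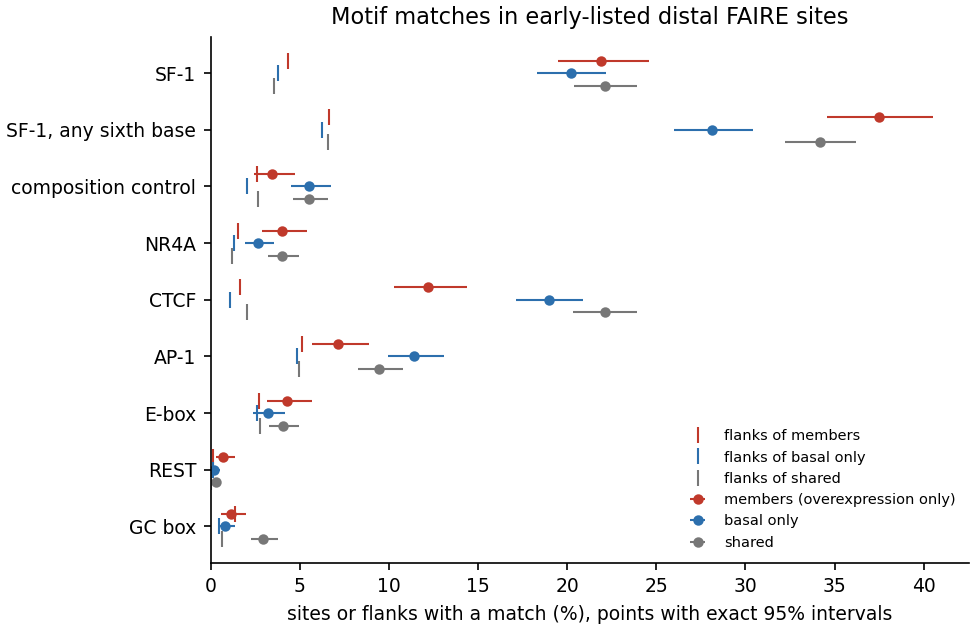
Share of sites with a motif match in percent (points, with exact 95% intervals) and of their flanks (ticks) for 1048 members, 1660 basal-only and 2167 shared early distal sites. Members lie highest for CAAGGNCA (37.5%) and lowest of the 3 classes for the CTCF motif (12.2%) and the AP-1 motif (7.16%).

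Motifs of CTCF and AP-1 were scarcer in members than in basal-only sites. The CTCF motif (searched on both strands with up to 1 mismatch) was present in 128 members, which is 12.2% (10.3 to 14.4%), in 1.67% of their flanks, in 19.0% of basal-only sites and in 22.1% of shared sites. The members' deficit was -6.76 points (-9.45 to -3.97) against basal-only sites and -9.84 points (-12.4 to -7.13) against shared sites. It was -7.98 (-11.5 to -4.41) and -12.6 points (-15.5 to -9.81) when these were weighted to the members' width and GC content. Without a mismatch the difference from basal-only sites shrank to -1.57 points (-3.22 to 0.183). Late sites held the CTCF motif at 13.0%, a difference of -0.757 points (-2.98 to 1.65). Of 128 members with a CTCF motif, 10 also had an SF-1 motif (7.81%; 3.81 to 13.9%), against 220 of 920 without one (23.9%; 21.2 to 26.8%).

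The AP-1 motif (TGACTCA or TGAGTCA) was present in 75 members (7.16%), in 5.10% of flanks, in 11.4% of basal-only and in 9.46% of shared sites. The difference from basal-only sites was -4.29 points (-6.44 to -2.04), and -5.50 points (-8.65 to -2.34) after weighting to width and GC content. That from shared sites was -2.30 points (-4.22 to -0.226), but -2.10 points (-4.26 to 0.0626) after weighting, which included 0. Late sites, which were narrower, held the motif less often, at 4.68%, and members exceeded them by 2.47 points (0.848 to 4.33). Members exceeded their own flanks by 2.05 points (0.308 to 3.98), whereas basal-only sites exceeded theirs by 6.60 points (4.95 to 8.35). The composition control was also less frequent in members than in basal-only sites, by -2.11 points (-3.64 to -0.479). Of the 75 members with an AP-1 motif, 20 also had an SF-1 motif (26.7%; 17.1 to 38.1%).

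Motifs of other factors were rare, or their difference from basal-only sites included 0 or changed direction with weighting. The monomer site of NR4A receptors, AAAGGTCA, which shares AAGGTCA with the SF-1 motif, was found in 4.01% of members, 1.53% of flanks and 2.65% of basal-only sites. The REST motif (up to 4 mismatches), which recruits the repressor NRSF/REST at neuronal genes, was found in 7 members, 3 of 2096 flanks, 3 basal-only and 6 shared sites. Its difference from basal-only sites of 0.487 points (-0.00304 to 1.20) included 0. Members exceeded their flanks by 0.525 points (0.0832 to 1.24), and shared sites theirs by 0.254 points (0.0693 to 0.580). The 7, named after their motifs were counted, lay nearest to SLC31A2, GADL1, PREX1, SLC32A1, PALD1, MARCHF5 and PARD3. Of these, SLC32A1 encodes the vesicular transporter of inhibitory amino acids in neurons. The E-box CACGTG was found in 4.29% of members and 2.72% of flanks. The GC box CCCCGCCC (1.15% of members), the ETS motif CCGGAAGT (3 members), the cAMP response element TGACGTCA (2 members) and the NFI motif (1 member) were rare, with 28, 1, 1 and 2 of 2096 flanks holding them. Shared sites held the GC box at 2.95%, a difference of -1.81 points (-2.75 to -0.752), but -0.850 (-2.03 to 0.332) after weighting. The GATA motif (AGATAA or TGATAA, or either with G as its last base) was as frequent in members (41.8%) as in flanks (41.7%). Its difference from basal-only sites was -4.95 points (-8.76 to -1.11) as counted and 4.89 points (0.446 to 9.33) after weighting to width and GC content; its direction depended on this weighting.

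Members were richer in GC than basal-only sites, and the share of GC-rich sites differed by more percentage points than any motif searched. Mean GC content was 46.4% ± 8.05 (SD over 1048 sites) in members, 40.7% ± 6.48 in basal-only, 45.6% ± 8.22 in shared and 43.5% ± 8.83 in late sites. Of the members, 312 had at least 50% GC (29.8%; 27.0 to 32.6%), against 8.73% of basal-only sites, a difference of 21.0 points (18.0 to 24.1). Shared sites stood at 26.3%, 3.51 points (0.224 to 6.88) below the members. At the other end, 4.87% of members and 17.6% of basal-only sites had under 35% GC. The SF-1 motif was found in 26.3% (21.5 to 31.5%) of members with at least 50% GC and in 20.1% (17.3 to 23.2%) of the others. Whether the lists were corrected for GC content is not given in the sources used here, and the part of base composition in which sites were called was not tested.

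**Figure D3:**
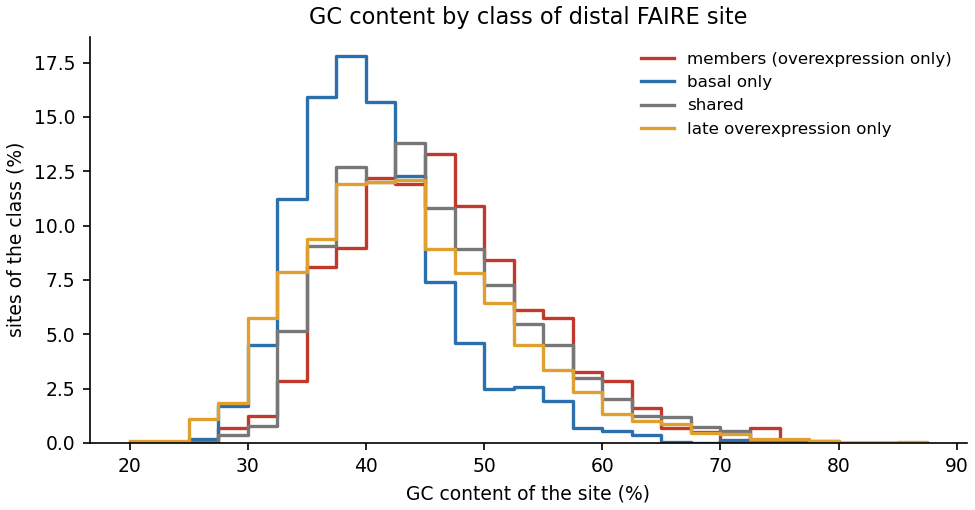
GC content of distal FAIRE sites (horizontal axis, in narrow bins of equal size) as a percentage of each class. The members and the shared sites (means of 46.4 and 45.6%) lie to the right of the basal-only sites (mean 40.7%).

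Most members lay in introns, as did most sites of the other classes. Their width ranged from 149 to 749 bp with a median of 249 bp, and their peak number from 377 to 15609 with a median of 10932, which the choice limits. By the site centre, 631 members were intronic (60.2%; 57.2 to 63.2%), 380 intergenic (36.3%; 33.3 to 39.3%) and 37 exonic (3.53%; 2.50 to 4.83%). Basal-only sites were intronic in 63.3%, shared sites in 59.4% and late sites in 61.3% of cases. The differences from members, of -3.04 (-6.81 to 0.704), 0.819 (-2.81 to 4.41) and -1.11 points (-4.56 to 2.29), all included 0. When only protein-coding genes were considered, 531 members were intronic (50.7%), against 54.8% of basal-only sites, a difference of -4.15 points (-8.00 to -0.293). The SF-1 motif was present in 21.9% of intronic and 22.1% of intergenic members.

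The nearest protein-coding start lay at a median of 34.3 kb from members (quartiles 19.2 and 69.7 kb), against 33.7 kb from basal-only and 32.5 kb from shared sites. It lay within 50 kb for 678 members (64.7%) and beyond 100 kb for 162 (15.5%). In 499 members (47.6%) the centre lay in the body of the gene whose start was nearest, and in 63 (6.01%) it lay in one coding gene but nearest to the start of another. The start of the nearest gene had a site in both lists for 485 members (46.3%), in the overexpression list only for 103 (9.83%), in the basal list only for 62 (5.92%) and in neither list for 398 (38.0%). Over all coding genes, counted by gene, these shares were 41.4, 7.18, 4.94 and 46.4%. A start in the overexpression list only was nearest to 8.19% of basal-only and 8.95% of shared sites. For every state but the last, the differences of members from basal-only, shared and late sites included 0. For starts in neither list the difference was 4.00 points (0.300 to 7.73) from basal-only sites and 3.18 points (-0.349 to 6.76) from shared sites. From late sites it was -3.46 points (-6.84 to -0.0114), so members lay between these classes. A shared site lay within 10 kb of 178 members (17.0%). A basal site lay within 500 bp, without overlap, of 26 (2.48%).

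Members were spread over all 23 chromosomes examined, from 8 on chromosome 21 to 104 on chromosome 1. Set against basal-only sites, the share on a chromosome had an interval that included 0 for 19 of 23. Chromosome 20 held 50 members (4.77%) and 33 basal-only sites (1.99%), a difference of 2.78 points (1.40 to 4.35), and chromosome 19 held 19 and 12, a difference of 1.09 points (0.248 to 2.14). Chromosome 5 held 57 members (5.44%) and 134 basal-only sites (8.07%), a difference of -2.63 points (-4.50 to -0.669), and chromosome 12 differed by -2.23 points (-4.02 to -0.340). In 17 members (1.62%) at least 50% of the words of 24 letters occurred 10 or more times in the genome, against 0.964% of basal-only sites.

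Of the 10 lowest-numbered members, most lay in introns. The earliest member, at number 377, was a 599 bp site at chr12:2364801-2365399 in an intron of CACNA1C, the pore subunit of a voltage-gated L-type calcium channel, 141 kb downstream of the nearest transcript start. Number 500 lay at chr11:51580101-51580399, 65.0 kb from the olfactory receptor gene OR4C46 and close to the centromere, with 17.8% repeated words. Number 1626 lay in an intron of CAMK2B, a calcium/calmodulin-dependent kinase subunit, and had 61.5% GC. Number 1904 lay in an intron of the tyrosine kinase ABL1 and number 1989 in an intron of NDUFAF2, a factor for assembly of respiratory complex I. Number 2255 lay 38.9 kb upstream of ZRANB1, a deubiquitinase, and number 2260 in an intron of SLC6A2, the noradrenaline transporter. The rest of the first 10 were at HDGFL1 (2302), in an intron of the non-coding gene CASC15, at SEMA4D (2421), a semaphorin, and at ANKRD2 (2520), in an intron of UBTD1. None of these 10 held an SF-1 motif. Over all members the motif was present in 27.3% (21.9 to 33.2%) of the 253 in the first 25% of the list and in 20.3% (17.5 to 23.2%) of the other 795.

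The widest members were 749 bp at SHCBP1, 699 bp at PREX1, and 599 bp at CACNA1C, S1PR3 and WNT4. PREX1 encodes a Rac exchange factor, S1PR3 a sphingosine-1-phosphate receptor and WNT4 a secreted Wnt ligand with roles in adrenal and gonadal development. The WNT4 site held 1 SF-1 motif and a CTCF motif, and the PREX1 site a CTCF motif with 60.1% GC. Across members, 32.0% (26.0 to 38.5%) of the 228 over 300 bp wide held an SF-1 motif, against 17.4% (12.5 to 23.1%) of the 213 of up to 200 bp.

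Of the 29 members with at least 2 SF-1 motifs (2.77%; 1.86 to 3.95%), the share was 1.08% in basal-only, 2.81% in shared and 0.753% in late sites. The earliest of them was number 3761, at chr2:121514901-121515299 in an intron of GLI2, a transcription factor of hedgehog signalling. Other early ones were at CXCR5, a chemokine receptor (5610), CCDC33 (6164), CREB5, a cAMP response element-binding factor (6450), and BICDL1 (7154). Later ones were at THRB, thyroid hormone receptor beta (7269), HTT, huntingtin (7656), EGR2, a zinc finger transcription factor (8363), and DYRK2, a protein kinase (8392). Of these, those of GLI2, CCDC33, THRB, HTT and EGR2 were intronic by any annotated gene.

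To see whether members gathered at particular genes, each was assigned to its nearest protein-coding start. Distances given for a gene are to its nearest annotated transcript start, which can differ between sites of the same gene. The 1048 members fell to 888 of 20090 protein-coding genes, which is 4.42%. Of these genes, 122 had at least 2 members and 29 had at least 3. The 122 genes held 282 members (26.9% of members, 13.7% of genes). The more numerous basal-only sites gave 252 genes with at least 2 sites (36.7% of sites), and shared sites gave 364 (42.2% of sites). These classes are larger, and the counts are not adjusted for size. Genes with members were long. The median length was 27.3 kb for all coding genes, 106 kb for those nearest a member and 172 kb for those with at least 2. Runs of members no more than 50 kb apart numbered 76 and held 163 members (15.6%), against 19.2% of basal-only and 25.5% of shared sites.

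LSAMP, a cell adhesion protein of the immunoglobulin superfamily, had most members, with 6 over 1284 kb of chromosome 3. They stood at numbers 5100, 8852, 10418, 11259, 12570 and 15461 and lay 77.2, 135, 69.6, 89.3, 50.3 and 92.8 kb from the nearest LSAMP transcript start. Numbers 5100, 8852, 10418 and 15461 were intronic, and 2 of the 6, numbers 5100 and 12570, held an SF-1 motif. The gene also had 5 basal-only and 4 shared early distal sites, and its start was accessible in basal cells only.

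SHCBP1, which encodes an adaptor that binds Shc proteins, had 5 members, all intergenic and 118 to 198 kb away, in 79.9 kb next to the centromere of chromosome 16. Between 31.2 and 43.6% of the words of these 5 sites were repeated in the genome, and none held an SF-1 motif. THSD4, an extracellular matrix protein of microfibrils, had 4 intronic members without an SF-1 motif, one of them with 99.4% repeated words, beside 7 basal-only and 9 shared sites. GRIK4, a subunit of kainate-type glutamate receptors, had 4 intronic members at 99.2, 54.6, 105 and 21.5 kb, of which the first held an SF-1 motif. It had no basal-only or shared early distal site but 4 late sites, and its start was accessible in the overexpression list only.

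KIT, the receptor tyrosine kinase for stem cell factor, had 4 members and no basal-only, shared or late site of the same kind. At numbers 6447, 9125 and 14837 lay 3 intergenic members within 31.3 kb, at 140, 117 and 109 kb upstream of the nearest KIT transcript start. At number 14584 lay one 121 kb downstream of another KIT transcript start, in an intron of the non-coding gene LINC02358. The 4 members spanned 340 kb. Only number 14837, printed above, held an SF-1 motif. The KIT start itself had a site in neither list. IGF1, insulin-like growth factor 1, had 4 members at 75.1, 17.4, 67.0 and 119 kb, the second in an intron of the gene and the others upstream. Those at 67.0 and 119 kb held an SF-1 motif. It had 1 basal-only site, no shared site, and a start accessible in neither list.

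**Figure D4:**
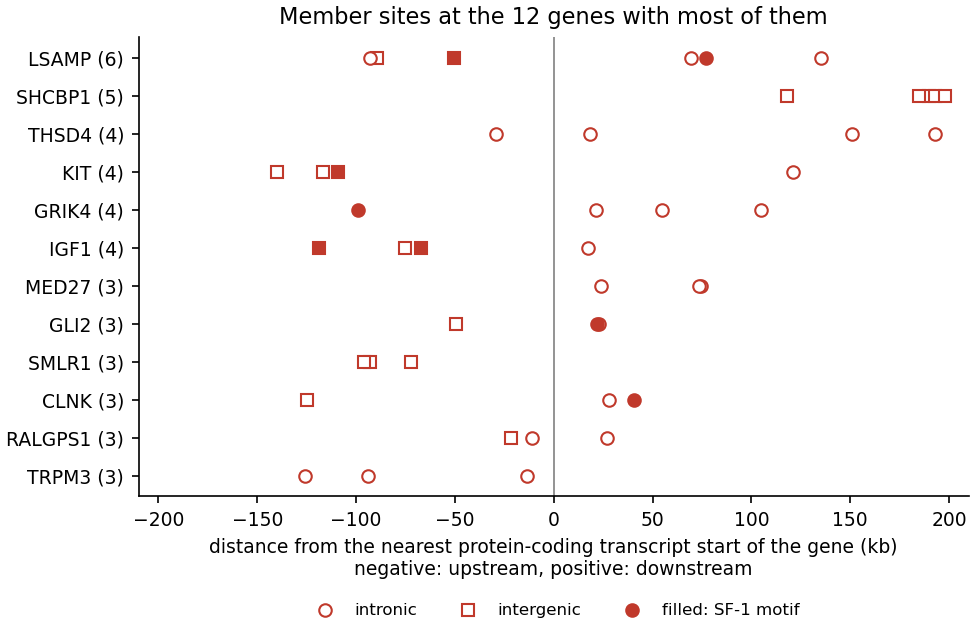
Members at the 12 genes with most of them (ties at 3 members broken by lowest peak number), by distance in kb from the nearest protein-coding transcript start of the gene (negative is upstream). Circles are intronic and squares intergenic members, filled where the site holds an SF-1 motif, and the 2 intronic members of GLI2 overlap. LSAMP (6) has members on both sides, the 5 of SHCBP1 lie 118 to 198 kb downstream, and KIT has 3 upstream within 31.3 kb of each other.

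Among the genes tied at 3 members, the 6 whose earliest member had the lowest numbers are described here. MED27, a Mediator subunit, and TRPM3, a cation channel activated by heat and by pregnenolone sulphate, had all 3 in their introns. GLI2 had 2 intronic members at 21.7 and 23.1 kb and 1 at 49.7 kb upstream. CLNK, an adaptor of immune receptor signalling, and RALGPS1, an exchange factor for Ral, had 2 intronic members and 1 intergenic member each. The 3 members of SMLR1 were intergenic and lay within 24.2 kb, 72.2 to 96.1 kb upstream. Of these genes, GLI2 and CLNK had 1 member with an SF-1 motif and the other 4 had none. Altogether, 57 of the 122 genes with at least 2 members had one with an SF-1 motif. Over all members 21.9% held the motif, so a gene with several members has more occasions to hold one. No expected count was set beside the 57. At 6 of the 122 genes every member had an SF-1 motif. These, named after their motifs were counted, were WNT4, SPACA1, ACTR3B, ME3, CREB5 and GRIK3. Of all coding genes, 6.49% were nearest to a basal-only and 8.04% to a shared early distal site, so most had neither. At 39 of the 122 genes there was also neither. Of these, 8 had at least 3 members, and by the same late choice they are KIT, GRIK4, WNT4, MAPK4, VPS13C, ACTBL2, CTNNA1 and ENSG00000289710.

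The printed motif recurred at WNT4, which had 3 intergenic members, each with 1 SF-1 motif. These lay 52.1 and 59.5 kb upstream and 14.3 kb downstream of the nearest start, at numbers 6145, 10260 and 12958, with widths of 599, 249 and 249 bp. No basal-only, shared or late site of the same kind had WNT4 as its nearest gene, and its start was accessible in neither list. Other genes of the Wnt and beta-catenin pathway with a member were AXIN2, a scaffold of the beta-catenin destruction complex (1 site 174 kb away, with an SF-1 motif), WNT5A (1), and ZNRF3, a ubiquitin ligase that removes Wnt receptors and is often lost in adrenocortical tumours (2 intronic sites). In all, 4 of 41 genes of this list had a member (9.76%), against 3 with a basal-only and 10 with a shared site.

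Genes of steroid and cholesterol synthesis had members at about the rate of all coding genes (4.42%). Of 24 steroid synthesis genes, 1 had a member (4.17%), an intronic site of HSD17B12 at 10.7 kb, and of 24 cholesterol synthesis genes also 1, SC5D, at 69.3 kb. For cholesterol uptake, storage and transport the count was 5 of 27 genes (18.5%). They included SCARB1, the HDL receptor that supplies cholesterol to steroidogenic cells (20.6 kb from the start), SOAT1, which esterifies cholesterol for storage (33.5 kb), ABCA1, a cholesterol exporter (16.5 kb), and GRAMD1B, a sterol carrier between membranes (10.9 kb). These stood late among the members, at numbers 12223 to 14368, and of these 4 only the GRAMD1B site held an SF-1 motif. As many genes of that list, 5, had a shared site, and 3 had a basal-only site.

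Among 28 genes of aldosterone control and ion transport, 6 had 1 member each (21.4%), against 8 with a basal-only and 12 with a shared site. Of these, 4 were pore subunits of voltage-gated calcium channels, CACNA1A, CACNA1C, CACNA1D and CACNA1G, with intronic members at 10.5, 141, 23.9 and 10.8 kb. CACNA1D and CACNA1G encode channels through which calcium entry drives aldosterone production in the zona glomerulosa. The CACNA1D site alone held an SF-1 motif. The remaining genes were CAMK2B and CALN1, a calmodulin-like protein. In ACTH and cAMP signalling 3 of 40 genes had a member (7.50%), namely the phosphodiesterases PDE7B and PDE8A, which break down cAMP, and CREB5, whose 2 intergenic members held 2 and 1 SF-1 motifs. Basal-only and shared sites were each found at 8 of these 40.

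Of 33 genes of adrenal development and SF-1 partners, 4 had a member (12.1%), against 6 with a basal-only and 11 with a shared site. They included GATA6, a GATA factor of the adrenal cortex (106 kb upstream), PBX3, a homeodomain partner factor (intronic), and NRIP1, a nuclear receptor corepressor (89.9 kb upstream). Of 48 nuclear receptors 5 had a member (10.4%), against 12 with a basal-only and 10 with a shared site. RORA, a receptor of the ROR family, had 2 intronic members without an SF-1 motif. THRB had 2, at 43.4 and 51.6 kb, of which the former held 2 SF-1 motifs. ESRRG, an orphan receptor that reads half-sites much like that of SF-1, RARB, the retinoic acid receptor beta, and VDR, the vitamin D receptor, had 1 intronic member each and no SF-1 motif.

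Growth factor and tumour genes had a member in 5 of 35 cases (14.3%), with 9 members. Besides KIT these were the IGF receptors IGF1R (25.8 kb) and IGF2R (25.9 kb), FGFR4, a fibroblast growth factor receptor (14.9 kb upstream, in an intron of ZNF346), and MYC, whose 2 members lay 139 kb upstream and 199 kb downstream in non-coding genes. Angiogenesis and matrix genes had a member in 9 of 39 cases (23.1%), against 8 with a basal-only and 6 with a shared site. They comprised the angiogenic factors VEGFA, ANGPT1 and EDN1, the collagens COL4A1, COL4A2 and COL15A1, the matrix proteins FBN1 and LAMB1, and ADAMTS9, a matrix protease with 2 intronic members. Only 1 of these 10 members, at ADAMTS9, held an SF-1 motif.

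Exchange factors for small GTPases had the largest share of the lists examined, with 10 of 41 genes and 13 members (24.4%), yet they are long genes (median 233 kb) and 8 also had a basal-only and 12 a shared site. VAV2, a Rac exchange factor downstream of receptor kinases, had 3 intronic members, 349, 499 and 399 bp wide, at numbers 5546, 6834 and 6836. They spanned 104 kb and lay 13.8, 57.9 and 64.7 kb from the nearest VAV2 transcript start, which was not the same start for all 3. None held an SF-1 motif. VAV2 had no basal-only and 1 shared early distal site, and its start was accessible in the overexpression list only. PREX1 had 2 members, at 22.2 and 119 kb, and RASGRF1, RAPGEF1, DOCK4, DOCK9, ARHGEF3, ARHGEF7, TRIO and KALRN had 1 each. For comparison, 4.42% of all coding genes had a member, 6.49% a basal-only and 8.04% a shared site, and every share above rests on few genes and has no test.

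To ask whether members lay near genes whose mRNA follows SF-1 dosage, the names on the study's expression array lists, measured in other samples of the cell line, were used. According to the paper, overexpression and knockdown were profiled on different array types, and knockdown cells and their controls were electroporated with siRNA. The overexpression and knockdown lists are therefore not directly comparable. Of 178 coding genes listed as higher upon SF-1 overexpression, 32 were nearest to a member (18.0%), 13.6 points (8.60 to 19.9) above all coding genes (4.42%), while 14 were nearest to a basal-only site (7.87%), 1.38 points (-1.76 to 6.29) above the 6.49% of all coding genes. Of 88 genes listed as lower upon overexpression the order was opposite, with 9 nearest to a member (10.2%), still 5.81 points (1.05 to 13.9) above all coding genes, and 29 nearest to a basal-only site (33.0%), 26.5 points (17.5 to 36.8) above all coding genes. Counted by gene, 28 of the higher genes had a member only, 10 a basal-only site only and 4 both, whereas 3 of the lower genes had a member only, 23 a basal-only site only and 6 both. Shared sites were nearest to 26 of the higher genes (14.6%) and 23 of the lower genes (26.1%), against 8.04% of all coding genes. Gene length was above the 27.3 kb median of all coding genes in both lists (61.9 and 81.6 kb), and its part in the excess over all genes was not tested. The lists could hold only genes measured on the arrays and called changed, whereas the share over all coding genes was not limited so. The part of this limit was not tested either.

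**Figure D5:**
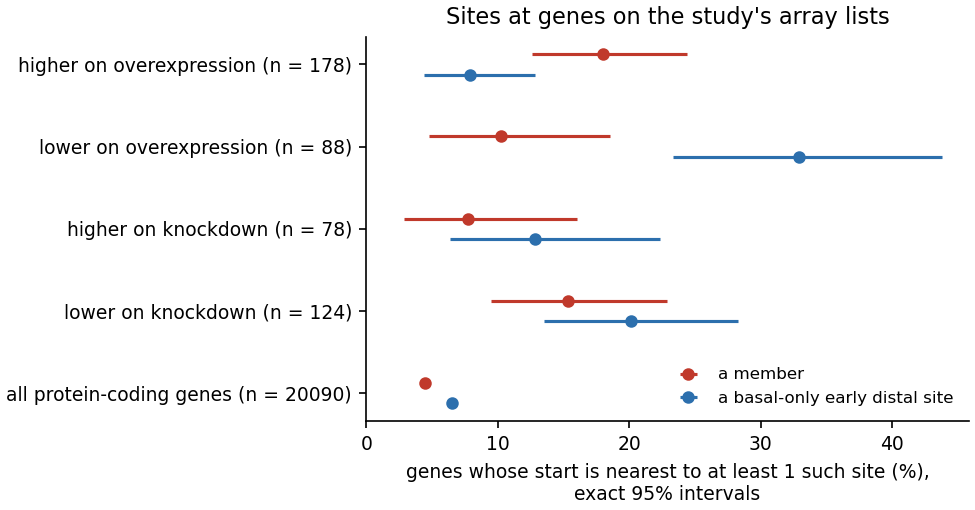
Share of genes in percent (with exact 95% intervals) whose start is nearest to at least 1 member or at least 1 basal-only early distal site, for 4 lists of genes from the study's arrays and for all 20090 coding genes. The member point lies to the right for genes higher on overexpression (18.0 against 7.87%) and to the left for genes lower on overexpression (10.2 against 33.0%).

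In both knockdown lists, more genes were nearest to a basal-only site than to a member. Of 124 genes listed as lower upon SF-1 knockdown, 19 were nearest to a member (15.3%), 10.9 points (5.61 to 18.3) above all coding genes. Nearest to a basal-only site were 25 (20.2%), 13.7 points (7.55 to 21.6) above all coding genes, and to a shared site 40 (32.3%). Of 78 genes listed as higher, 6 were nearest to a member (7.69%), 3.27 points (-0.857 to 11.4) above all coding genes. Nearest to a basal-only site were 10 (12.8%), 6.33 points (0.619 to 15.5) above all coding genes, and to a shared site 9 (11.5%). When any site within 200 kb of the gene start was counted, a member was found at 55 of the 178 genes higher upon overexpression (30.9%; all coding genes 15.6%) and a basal-only site at 35 (19.7%; all coding genes 19.9%). For the 88 lower genes the numbers were 18 (20.5%) and 47 (53.4%). They were 13 (16.7%) and 24 (30.8%) for the 78 genes higher upon knockdown. For the 124 genes lower upon knockdown they were 40 (32.3%) and 44 (35.5%).

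Of the genes higher upon overexpression, KIT had 4 members, and CTSV, a lysosomal cysteine protease, and GALNT18, which starts O-linked glycosylation, had 2 intronic members each, one of them with an SF-1 motif in either gene. At CTSV the pair lay 17.2 and 18.7 kb from the nearest transcript start, at GALNT18 83.5 and 110 kb. Of the 37 members at the 32 genes, 8 held an SF-1 motif, at 8 genes, which is close to the 21.9% of all members. KIT was also listed as higher upon knockdown. IGF1 was listed as higher upon knockdown alone, and ADAMTS9 was on both that list and the list of genes lower upon overexpression. Among genes lower upon knockdown, MAPK4, an atypical MAP kinase, had 3 members, at 37.0, 18.7 and 36.6 kb, the last with an SF-1 motif, and ITGA9, an integrin subunit, had 2 intronic members at 10.4 and 56.9 kb. THSD4, with 4 members, was listed as lower upon overexpression.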

How the data were processed

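FAIRE-seq was carried out on H295R/TR SF-1 cells, with 1 library per condition. The authors deposited 1 peak list per library on hg19, which gave coordinates on a 50 bp grid, a running peak number and a score that was 1000 in every row and was not used. The aligner, peak caller and threshold of the FAIRE lists, and the quantity that orders the peak numbers, are not given in the sources used here. The submitters' processing notes name CASAVA 1.8. Lists were joined with GENCODE 44 and GRCh37 in Python 3.11.15 (pysam 0.24.0, scipy 1.17.1), with 1-based coordinates. Motifs were searched on both strands of whole sites. Shares have Clopper-Pearson and unweighted differences Newcombe 95% intervals. Weighted differences have 95% intervals by a normal approximation. All are for counting error only. Weighted differences used strata of 50 bp of width and 5 points of GC content, which held 1015 of the 1048 members for basal-only and 1037 for shared sites. The procedures were tested on simulated data.

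Named sites were the 10 lowest-numbered, the 5 widest and up to 10 with at least 2 SF-1 motifs. Named genes were the 12 with most members, those of 11 pathway lists with a member, and array-list genes with at least 2. The array lists, names only from the study's supplement, matched 178 and 88 coding genes (higher and lower upon overexpression) and 78 and 124 (higher and lower upon knockdown). The members, lists and rules were chosen with earlier results of these data known. A few sites and genes that these rules name are not reported here.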

Additional observations from a re-analysis of the deposited data

How the results depend on the processing

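Of 60 alternative values over 10 results, 45 stayed within the reported interval or within 1.5 times the reported count, and 15 moved beyond it. A value inside an interval that excluded 0 could not change sign. Among the 15 that moved, no difference whose interval excluded 0 changed sign. The GATA difference, which is not among the 10, changed sign on weighting, from -4.95 to 4.89 points. The number of members fell to 253 in the first 25% of the list and to 597 at 20 kb from every start. The intronic share was 50.7% with introns of protein-coding genes only and 66.6% when distance was taken from gene starts only. The SF-1 motif share was 37.5% for CAAGGNCA and 27.3% in the first 25% of the list. With flanks from 5000 bp beyond the ends, 3.29% of flanks held the motif. The share in sites does not depend on flanks, so that alternative, counted among the 45, could not have moved. The CTCF difference from basal-only sites was -1.57 points (-3.22 to 0.183) without mismatches, which leaves fewer matches. The difference in GC-rich sites was 33.2 points at a limit of 45% GC. Genes with several members numbered 8 in the first 25%, 65 at 20 kb from every start, 194 with gene starts only and 208 with protein-coding transcript starts only. Genes higher upon overexpression with a member numbered 55 with any member within 200 kb of the gene start, 7 in the first 25% and 19 at 20 kb from every start. The alternative with sites under 50% repeat-masked sequence was not run, because the genome sequence used carries no masking. In its place, chosen after the data were seen, sites with at least 50% of their 24-letter words repeated 10 or more times were left out, which left 1031 members. The SF-1 motif share was then 22.1% and its difference from basal-only sites 1.98 points (-1.17 to 5.21). Unknown depth and 1 library per condition limit every comparison. No paired analysis was possible because each condition has 1 library.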
